A study of Homo sapiens with 9 samples.

Results

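The genes that encode the human proteasome were taken as all gene symbols that begin with PSMA to PSMG and end in a number, which gave 48 of the 58233 gene IDs in the tables. Polyadenylated RNA of TC32 cells, a line established from a Ewing sarcoma, was sequenced in 3 groups of 3 libraries. Inhibitor cells received Wnt3a, a ligand of the Wnt pathway, for 28 h and, during the last 24 h, SB-505124, an inhibitor of TGF-β type I receptor kinases. Wnt3a cells received Wnt3a for 28 h, with DMSO in place of the inhibitor for the last 24 h, and vehicle cells received PBS and then DMSO. Every group was grown with fetal bovine serum, all came from 1 tumour line, and no group had the inhibitor without Wnt3a. The libraries carried genes typical of Ewing sarcoma cells, with 32.4 to 104 counts per 1000000 (CPM) for NKX2-2, 182 to 461 CPM for NR0B1 and 846 to 1180 CPM for CD99.

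The proteasome is the protease that degrades proteins tagged with ubiquitin. Its core is a barrel of stacked alpha and beta rings with the catalytic sites inside the beta rings, and it is capped by a regulatory particle that has a base, with a ring of ATPases that unfold the substrate, and a lid, which removes ubiquitin. In cells exposed to interferon, other catalytic beta subunits replace the constitutive ones and form the immunoproteasome, which makes peptides for MHC class I molecules. By role the 48 genes were 7 alpha ring subunits, 4 structural and 3 constitutive catalytic beta subunits, 3 immunoproteasome subunits, 6 ATPases and 3 other subunits of the base, 8 lid subunits, 3 chaperones of base assembly, 4 chaperones of core assembly, 4 activators, 1 inhibitor and 2 core subunits restricted to single tissues. The last 2, PSMA8 of the testis and PSMB11 of the thymus, had 0 counts in all 9 libraries, where 3 counts correspond to 0.0671 to 0.114 CPM, a limit that covers counting error only. The other 46 passed the filter on low counts, which kept 17880 genes.

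Libraries held 28844348 to 42976799 counts, of which the 48 genes took 0.565 to 0.625%. No libraries of a group agreed within counting noise: the chi-square of their counts, divided by its degrees of freedom, was 6.83 to 61.7, with the highest values where inhibitor replicate 1, the shallowest library, was set against the other inhibitor libraries. CPM are scaled here with TMM factors, which were 0.876 to 0.914 in inhibitor libraries, against 1.02 to 1.1 in Wnt3a libraries and 1.04 to 1.07 in vehicle libraries. The scaling bears on every count of genes called: with library totals in place of TMM factors, the median log2 fold change over all genes tested moved by -0.25 for inhibitor against Wnt3a and by -0.23 for inhibitor against vehicle, and with the authors' TPM it moved by -0.17 and -0.12. A gene is therefore said to have risen or fallen under every scaling only where it passed the threshold with TMM factors, RLE size factors, library totals and TPM alike. The share of all genes that did so is not given, so counts of such genes stand without that background.

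Between inhibitor and Wnt3a cells, 22 of the 46 proteasome genes were higher and 7 were lower at an adjusted p below 0.05 with TMM factors. Over all genes tested, 24.5% were higher and 25.9% lower, 50.4% in all. The median log2 fold change was 0.24 over the 46 genes and -0.06 over all genes. With library totals the counts were 11 higher, against 15.8% of all genes, and 15 lower, against 35.9% (51.8% either way), and with TPM they were 9 higher, against 12.8%, and 15 lower, against 35.5% (48.4% either way). The distance of the members' median from the median of all genes was 0.29 with TMM factors, RLE size factors and library totals and 0.13 with TPM. The number of genes that passed in each direction thus depended on the scaling. Under every scaling, 9 genes were higher (PSMA2, PSMB8, PSMB9, PSMC6, PSMD4, PSMD8, PSME1, PSMF1 and PSMG2) and 6 were lower (PSMA3, PSMA4, PSME3, PSME4, PSMG3 and PSMG4). The share of all genes that passed under every scaling is not given, so whether these counts differ from it is not known. A change of at least 2-fold was called for 5 genes, PSMB8, PSMB9 and PSMG2 upward and PSME3 and PSMG4 downward, where 22.3% of all genes had such a call. The libraries of the 2 groups did not overlap in CPM for any of the 29 genes called, which were picked by a test on these same libraries. Of all genes tested, called or not, 58.1% did not overlap, so the 2 figures are not like for like. The call held without any 1 library for 16 of the 22 genes that were higher and for 4 of the 7 that were lower, and without Wnt3a replicate 1 the count of lower genes was 4.

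Between inhibitor and vehicle cells, 19 of the 46 genes were higher and 6 lower, where 25.0% of all genes were higher and 24.8% lower, 49.7% in all. Library totals gave 9 higher and 15 lower, against 17.1% and 33.8% of all genes (50.9% either way), and TPM gave 7 higher and 16 lower, against 15.2% and 30.5% (45.8% either way). A change of at least 2-fold was called for 4 genes, PSMB9, PSMG2, PSME3 and PSMG4, and for 22.1% of all genes. All 25 genes called, picked by a test on these same libraries, had libraries that did not overlap. Of all genes tested, called or not, 58.4% did not overlap, which is again not like for like. The genes higher under every scaling were PSMA2, PSMB8, PSMB9, PSMC6, PSMD4, PSMF1 and PSMG2, and the genes lower were PSMA3, PSMA4, PSME3, PSMG3 and PSMG4. Here too the share of all genes that passed under every scaling is not given. The comparisons of inhibitor cells with Wnt3a cells and with vehicle cells use the same 3 inhibitor libraries.

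**Figure D1:**
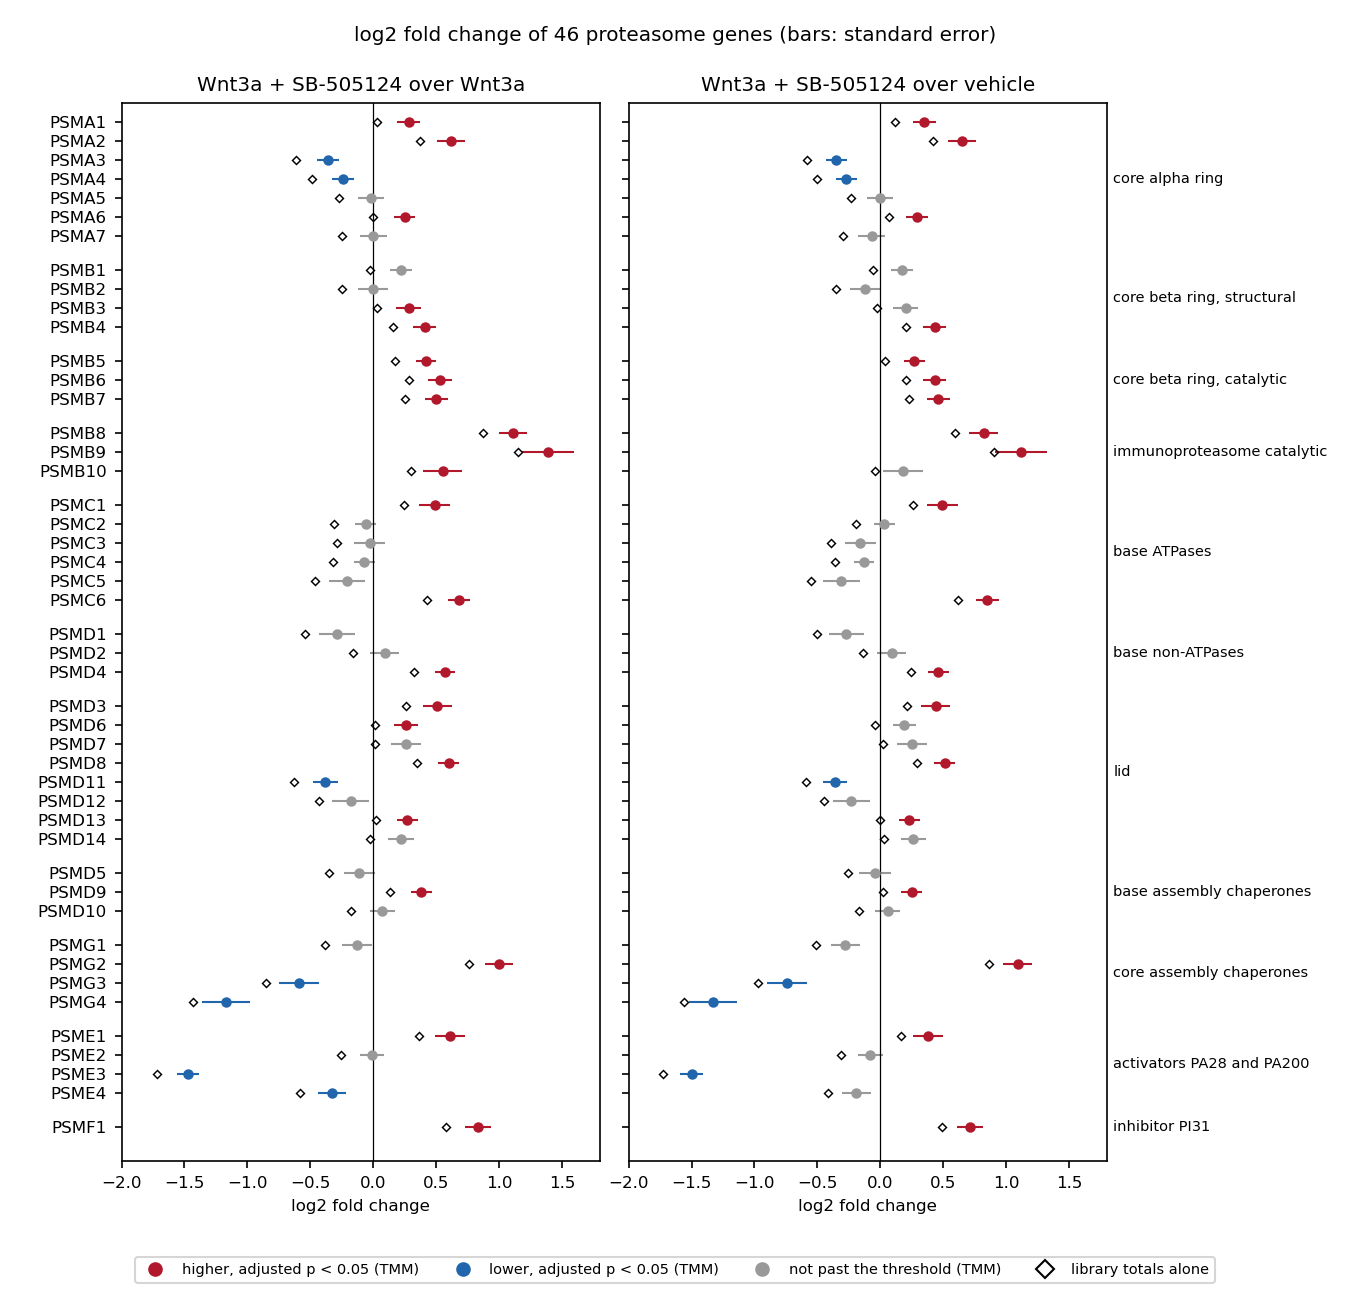
log2 fold change of 46 proteasome genes, grouped by role, for inhibitor over Wnt3a (left) and inhibitor over vehicle (right). Circles are edgeR estimates with TMM factors and their standard error, red where higher and blue where lower at an adjusted p below 0.05, and open diamonds are the estimates with library totals, which lie to the left of the circles for every gene. PSMB9, PSMB8 and PSMG2 lie farthest to the right and PSME3 and PSMG4 farthest to the left in the left panel.

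Levels can be compared between genes as TPM, which the authors divided by length. In vehicle cells PSMB4, a structural beta subunit, had the highest level at 719.9 ± 50.4 TPM, followed by PSMA7 of the alpha ring at 420.6 ± 58.7 TPM, PSMD4 at 364.6 ± 12.3 TPM and PSMB5 at 363.4 ± 15.8 TPM (SD, n = 3). The libraries of PSMD4 and PSMB5 overlapped. The lowest levels among the 46 genes were those of PSMG4, a core assembly chaperone, at 13.32 ± 0.707 TPM and of PSMB9, an immunoproteasome subunit, at 8.693 ± 1.86 TPM (SD, n = 3). A level of 100 TPM or more was reached by 28 genes in inhibitor cells, 30 in Wnt3a cells and 31 in vehicle cells. The 7 alpha ring genes, whose proteins stand in equal numbers in the barrel, ranged 3.36-fold in mean TPM in inhibitor cells, 3.12-fold in Wnt3a cells and 3.23-fold in vehicle cells, with PSMA5 lowest and PSMA7 highest each time. The range was wider for the 8 lid genes, at 9.92-fold in inhibitor cells, 7.72-fold in Wnt3a cells and 8.03-fold in vehicle cells, with PSMD12 lowest and PSMD8 highest. Summed over the 48 genes, TPM was 6972, 7401 and 7117 in inhibitor libraries, 7804, 7305 and 7143 in Wnt3a libraries and 7329, 7343 and 7220 in vehicle libraries. These sums overlap between inhibitor and Wnt3a libraries and between inhibitor and vehicle libraries. Summed CPM was 6213 to 6769 in inhibitor libraries, 5258 to 5842 in Wnt3a libraries and 5619 to 5755 in vehicle libraries, so that inhibitor libraries were highest on the CPM scale and not on the TPM scale.

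**Figure D2:**
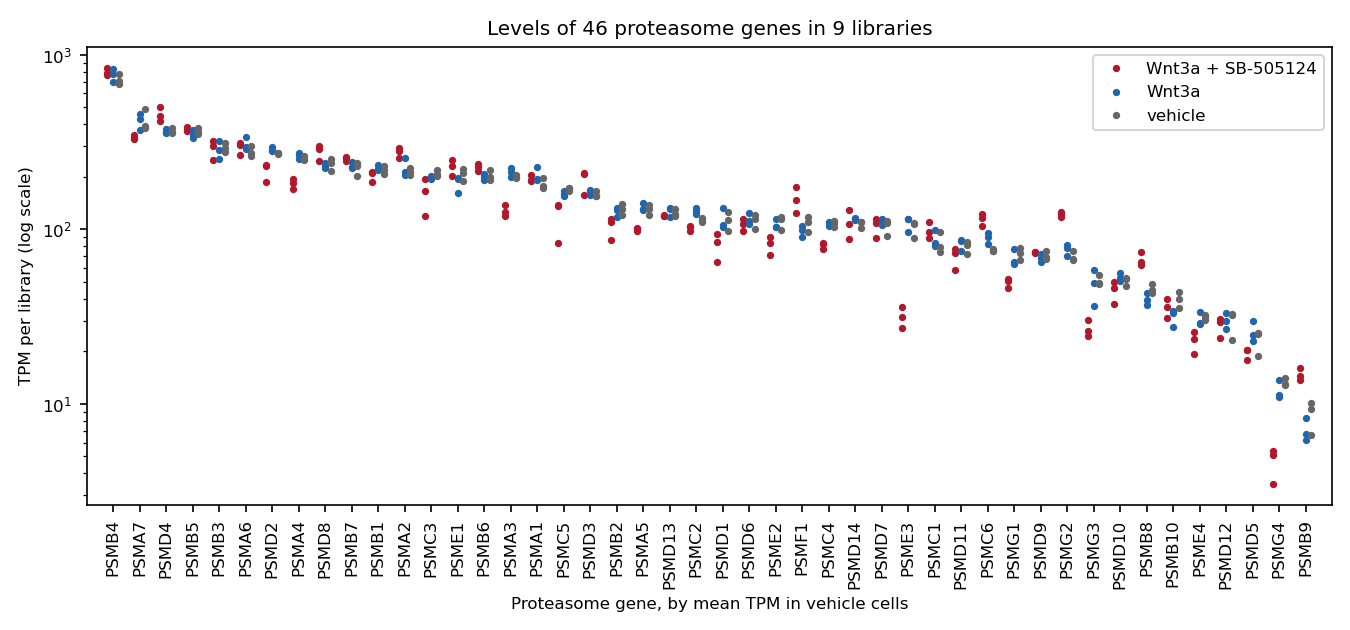
TPM of 46 proteasome genes in each library, on a log axis, ordered by mean TPM in vehicle cells. PSMB4 is highest at 719.9 TPM and PSMB9 lowest at 8.693 TPM in vehicle cells, and PSME3, PSMG2, PSMB8, PSMG4 and PSMB9 are among the genes whose inhibitor libraries stand apart from the other 6.

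The 3 genes of the immunoproteasome catalytic subunits were higher in inhibitor cells than in Wnt3a cells, PSMB8 and PSMB9 under every scaling and PSMB10 with TMM and RLE factors but not with library totals or TPM. PSMB8 and PSMB9 are neighbours in the MHC region of chromosome 6, at chr6:32840717-32844703 on the minus strand and chr6:32844136-32859585 on the plus strand in hg38. Both are known targets of interferon signalling, and PSMB8, PSMB9 and PSMB10 take the places of PSMB5, PSMB6 and PSMB7. Stretches upstream of a RefSeq transcript start of 4 genes that rose with the inhibitor are shown because they hold motifs of factors known to act on proteasome genes. They come from the RefSeq promoter table for GRCh38.p14, on the strand of the gene, without bases annotated as untranslated. Those of PSMB8, PSMB9 and PSMG2 lie inside the span of the gene in GENCODE, before an internal start, and the stretch before the other PSMB8 start, chr6:32844704-32844835, holds neither of the 2 motifs. Capitals mark the gamma-activated site TTCNNNGAA, an element of interferon-responsive genes, in PSMB8 (chr6:32844048-32844135, minus strand), and the antioxidant response element TGACNNNGC, bound by NFE2L factors with small MAF proteins, in PSMB9 (chr6:32853979-32854160, plus strand, where the element is on the opposite strand), PSME1 (chr14:24135944-24136157, plus strand) and PSMG2 (chr18:12658488-12658737, plus strand).
PSMB8: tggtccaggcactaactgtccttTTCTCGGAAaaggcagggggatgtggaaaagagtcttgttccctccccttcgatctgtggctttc
PSMB9: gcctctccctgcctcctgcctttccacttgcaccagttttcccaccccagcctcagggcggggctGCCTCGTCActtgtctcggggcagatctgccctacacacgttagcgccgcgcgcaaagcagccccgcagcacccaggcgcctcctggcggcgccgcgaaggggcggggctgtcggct
PSME1: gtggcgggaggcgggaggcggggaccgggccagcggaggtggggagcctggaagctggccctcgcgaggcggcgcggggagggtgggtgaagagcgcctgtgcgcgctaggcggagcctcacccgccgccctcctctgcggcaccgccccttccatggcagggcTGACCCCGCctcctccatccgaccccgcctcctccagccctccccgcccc
PSMG2: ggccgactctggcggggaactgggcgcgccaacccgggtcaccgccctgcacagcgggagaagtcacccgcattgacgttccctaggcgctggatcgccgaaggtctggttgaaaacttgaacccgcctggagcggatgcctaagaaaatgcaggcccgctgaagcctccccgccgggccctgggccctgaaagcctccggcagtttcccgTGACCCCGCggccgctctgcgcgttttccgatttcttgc

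On either strand of the 250 bases upstream of a start, the antioxidant response element was found in 25.5% of the 51 windows of 42 matched proteasome genes and in 10.9% of all 35116 windows. The gamma-activated site was in 13.7% of the windows of proteasome genes and in 6.57% of all windows. The interferon-stimulated response element, taken as GAAA, any 2 bases and GAAA, was in 9.8% and 3.02%, in the proteasome set at PSMA4, PSMB4, PSMB10, PSME2 and PSMG4, and the CCAAT box was in 37.3% and 32.0%. The motifs were searched separately, and a match describes the letters only. The 13 genes with the antioxidant response element did not share a direction: PSMB9, PSMG2 and PSME1 were higher in inhibitor cells than in Wnt3a cells under every scaling, and PSMA4 and PSME4 were lower. Nor did the 7 genes with the gamma-activated site. PSMA2 and PSMB8 were higher under every scaling, and PSME3 was lower. PSMB5 and PSMD3 were higher with TMM and RLE factors only, PSMC4 was not called with TMM factors and PSMA8 had 0 counts. Of the genes with the interferon-stimulated response element, PSMA4 and PSMG4 were lower under every scaling and none was higher under every scaling.

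PSMB8 had 67.32, 59.15 and 54.68 CPM in inhibitor libraries, 30.61, 24.93 and 28.2 CPM in Wnt3a libraries and 36.06, 33.0 and 33.55 CPM in vehicle libraries. All 3 inhibitor libraries lay above the other 6, and the log2 fold change was 1.11 (SE 0.113, adjusted p = 4.28e-05) against Wnt3a and 0.82 (SE 0.113, adjusted p = 0.000238) against vehicle. PSMB9 had 8.501, 7.755 and 9.46 CPM in inhibitor libraries, 3.091, 2.723 and 4.006 CPM in Wnt3a libraries and 3.317, 4.022 and 4.453 CPM in vehicle libraries. The inhibitor libraries again lay above the other 6, with a log2 fold change of 1.39 (SE 0.208, adjusted p = 0.000397) against Wnt3a and 1.12 (SE 0.206, adjusted p = 0.00137) against vehicle. PSMB10 had 21.14, 15.33 and 18.57 CPM in inhibitor libraries, 13.78, 12.97 and 10.81 CPM in Wnt3a libraries and 14.45, 18.2 and 15.74 CPM in vehicle libraries. Its inhibitor libraries lay above those of Wnt3a and overlapped with those of vehicle, with a log2 fold change of 0.55 (SE 0.158, adjusted p = 0.0152) against Wnt3a and 0.18 (adjusted p = 0.355) against vehicle. The call against Wnt3a ended without Wnt3a replicate 3 (adjusted p = 0.0515), and also when the counts of CTC-479C5.12, which shares 644 exon bases with PSMB10 on the same strand, were added to it (log2 fold change 0.32, adjusted p = 0.135). The added counts of a same-strand neighbour left PSMB9 at 1.15 (adjusted p = 0.00115). PSMB8 and PSMB9 share 139 exon bases on opposite strands, and PSMB8 shares 618 with PSMB8-AS1, which was at 2.51 CPM in inhibitor cells, 1.73 CPM in Wnt3a cells and 1.43 CPM in vehicle cells. Libraries were made with a stranded kit, but the strand setting of the counting is not given in the sources used here, so reads of opposite genes may not be told apart.

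The 3 constitutive catalytic genes rose by smaller amounts with TMM factors. PSMB5, of the chymotrypsin-like site, had 286.3, 283.9 and 274.2 CPM in inhibitor libraries, 218.7, 206.8 and 207.4 CPM in Wnt3a libraries and 222.1, 252.0 and 225.4 CPM in vehicle libraries. PSMB6, of the caspase-like site, had 160.3, 155.4 and 141.7 CPM in inhibitor libraries, 111.1, 100.9 and 103.9 CPM in Wnt3a libraries and 110.6, 123.1 and 106.1 CPM in vehicle libraries. PSMB7, of the trypsin-like site, had 203.7, 204.8 and 188.4 CPM in inhibitor libraries, 149.0, 131.5 and 142.4 CPM in Wnt3a libraries and 155.3, 131.4 and 147.3 CPM in vehicle libraries. For each of the 3 genes every inhibitor library lay above the other 6. The log2 fold changes against Wnt3a were 0.42 for PSMB5 (SE 0.082), 0.53 for PSMB6 (SE 0.092) and 0.5 for PSMB7 (SE 0.093), with adjusted p-values of 0.00202, 0.000927 and 0.00152, and they stayed above 0 under every scaling. With library totals 2 of the 3 were called against Wnt3a, and with TPM none was. Over all genes, 24.5% were higher with TMM factors, 15.8% with library totals and 12.8% with TPM.

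At the level of transcripts, each immunoproteasome gene can be set against the gene it replaces as a ratio of TPM, without scaling between libraries. Protein was not measured, so the share of the immunoproteasome itself is not given. PSMB8 made up 16.2, 15.0 and 14.5% of the summed TPM of PSMB8 and PSMB5 in inhibitor libraries, 10.4, 9.62 and 10.6% in Wnt3a libraries and 12.2, 10.2 and 11.1% in vehicle libraries. PSMB9 made up 5.79, 5.67 and 6.94% of PSMB9 and PSMB6 in inhibitor libraries, 3.13, 3.03 and 4.16% in Wnt3a libraries and 3.2, 4.09 and 5.02% in vehicle libraries. For both pairs all inhibitor libraries lay above the other 6. The log2 ratio was higher by 0.66 for PSMB8 and by 0.88 for PSMB9 than in Wnt3a cells, and by 0.52 and 0.63 than in vehicle cells, each with p = 0.1 in a 2-sided exact permutation test, the smallest that 3 against 3 libraries allow, and an adjusted p of 0.225 over the 9 ratio tests. PSMB10 made up 13.5, 10.7 and 12.7% of PSMB10 and PSMB7 in inhibitor libraries, 12.3, 12.9 and 10.8% in Wnt3a libraries and 12.9, 17.9 and 14.8% in vehicle libraries. These overlapped, with a log2 difference of 0.04 against Wnt3a (exact permutation p = 0.8, adjusted p = 0.8) and -0.35 against vehicle (exact permutation p = 0.2, adjusted p = 0.3). The constitutive gene had the larger share of the TPM of each pair in all 9 libraries.

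**Figure D3:**
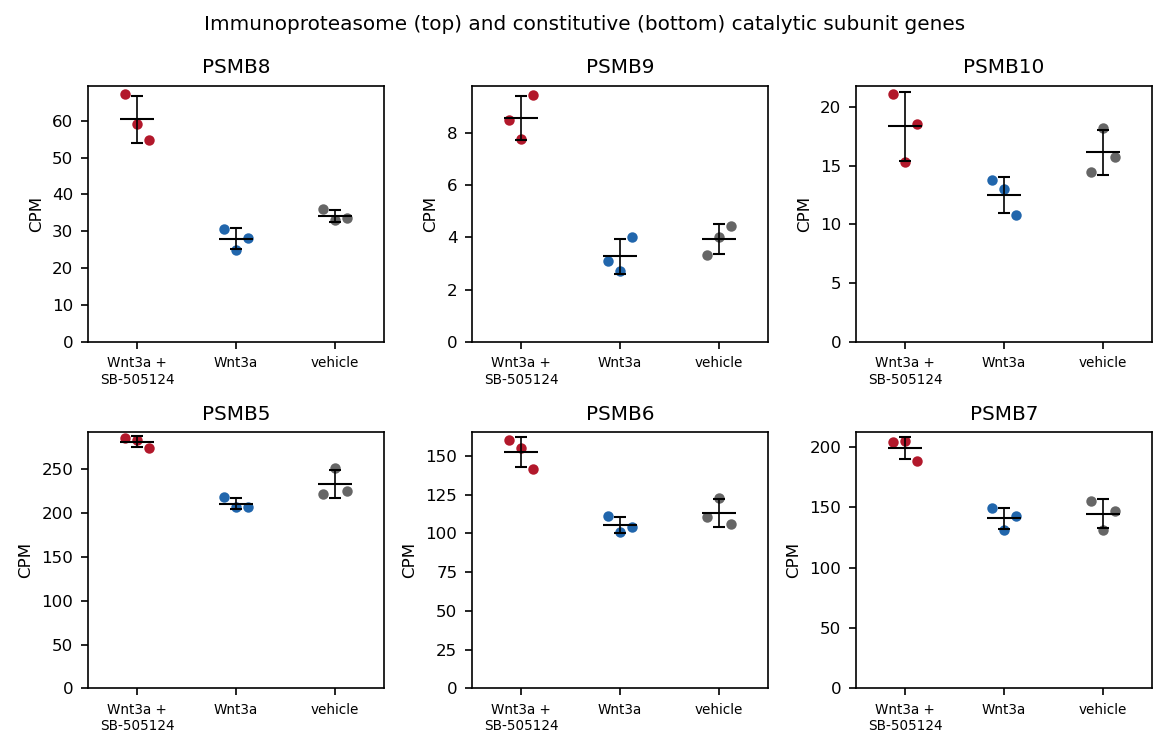
CPM of the immunoproteasome genes PSMB8, PSMB9 and PSMB10 and of the constitutive catalytic genes PSMB5, PSMB6 and PSMB7 in each library (points), with the mean and SD of 3 libraries (bars). The inhibitor libraries lie above the other 6 in every panel except that of PSMB10, where they overlap with vehicle.

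In the rest of the core, 3 of the 7 alpha ring genes were higher than in Wnt3a cells and 2 were lower with TMM factors, while 1 was higher with 2 lower by library totals and 4 lower by TPM. Over all genes, 24.5% were higher and 25.9% lower with TMM factors, 15.8% and 35.9% with library totals and 12.8% and 35.5% with TPM. PSMA2 had 202.2, 190.6 and 167.4 CPM in inhibitor libraries, 137.9, 112.3 and 113.6 CPM in Wnt3a libraries and 122.7, 123.4 and 111.9 CPM in vehicle libraries. Its log2 fold change was 0.62 (SE 0.11, adjusted p = 0.00109) against Wnt3a, and 0.47 (adjusted p = 0.0041) with the counts of RP11-111K18.1 added, a gene that shares 781 exon bases with PSMA2 on the same strand and that fell. PSMA3 had 79.51, 83.49 and 84.72 CPM in inhibitor libraries, 114.2, 102.3 and 100.6 CPM in Wnt3a libraries and 101.7, 108.9 and 104.8 CPM in vehicle libraries, a log2 fold change of -0.36 (SE 0.084, adjusted p = 0.00556) against Wnt3a. PSMA4 had 132.6, 139.2 and 128.0 CPM in inhibitor libraries, 167.9, 154.1 and 150.7 CPM in Wnt3a libraries and 166.8, 163.3 and 152.1 CPM in vehicle libraries. The libraries of PSMA4 did not overlap, but its call against Wnt3a (log2 fold change -0.24, adjusted p = 0.0347) ended when any of 6 of the 9 libraries was left out, with an adjusted p of up to 0.134. PSMA7 had 212.7, 213.6 and 202.0 CPM in inhibitor libraries, 229.5, 205.5 and 191.4 CPM in Wnt3a libraries and 204.7, 250.7 and 203.9 CPM in vehicle libraries, and the groups overlapped. Subunits of the same ring thus moved in opposite directions, PSMA2 up and PSMA3 and PSMA4 down, under every scaling. PSMA1 and PSMA6 were higher against Wnt3a with TMM factors, at 0.28 (adjusted p = 0.0288) and 0.25 (adjusted p = 0.0334), and both calls ended without any 1 of 4 libraries. On the same strand, PSMA1 shares 814 exon bases with RP11-140L24.4 and PSMA6 shares 919 with RP11-561B11.2. With the counts of these neighbours added, PSMA1 was at 0.41 (adjusted p = 0.0068) and PSMA6 at 0.27 (adjusted p = 0.0267). Of the 4 structural beta genes PSMB3 and PSMB4 were higher with TMM factors and none was called with library totals or TPM against Wnt3a.

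In the base of the regulatory particle, 2 of the 6 ATPase genes and 1 of the 3 other subunit genes were higher than in Wnt3a cells with TMM factors and none was lower, where 24.5% of all genes were higher and 25.9% lower. Lower calls appeared with the other scalings: 1 ATPase gene was higher and 3 were lower with library totals and with TPM alike, and of the 3 other subunits 1 was higher with 1 lower by library totals and 2 lower by TPM. Over all genes, 15.8% were higher and 35.9% lower with library totals, and 12.8% and 35.5% with TPM. PSMC6, an ATPase, had 125.8, 125.3 and 123.4 CPM in inhibitor libraries, 85.72, 74.22 and 73.28 CPM in Wnt3a libraries and 71.33, 65.61 and 71.12 CPM in vehicle libraries. All inhibitor libraries lay above the other 6, with a log2 fold change of 0.68 (SE 0.089, adjusted p = 0.000171) against Wnt3a and 0.85 (SE 0.089, adjusted p = 4.83e-05) against vehicle. PSMD4, which binds ubiquitin chains, had 403.3, 462.4 and 436.5 CPM in inhibitor libraries, 285.9, 287.5 and 303.4 CPM in Wnt3a libraries and 322.1, 314.2 and 307.1 CPM in vehicle libraries. It was higher by a log2 fold change of 0.57 (SE 0.082, adjusted p = 0.000307) than in Wnt3a cells. PSMC4, another ATPase, had 91.19, 97.32 and 93.74 CPM in inhibitor libraries, 103.8, 92.01 and 100.4 CPM in Wnt3a libraries and 105.5, 101.9 and 102.2 CPM in vehicle libraries, and was not called against either with TMM factors, while it was lower with library totals and TPM. The ATPases form a ring of 6 different subunits, and their log2 fold changes against Wnt3a spanned -0.21 to 0.68. PSMC3, PSMC5, PSMD1 and PSMD2 were lowest in inhibitor replicate 1, at 128.0, 73.55, 115.9 and 289.3 CPM, against 162.5, 109.3, 154.7 and 378.2 CPM in inhibitor replicate 3 and 184.7, 110.9, 179.4 and 405.0 CPM in inhibitor replicate 2. Without replicate 1, PSMD2 was called higher than in Wnt3a cells (log2 fold change 0.23, adjusted p = 0.0271), where with all libraries it was at 0.09 (adjusted p = 0.554), and PSMD3 of the lid moved to 0.64.

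Among the 8 lid genes, 4 were higher and 1 lower than in Wnt3a cells with TMM factors, 1 higher and 2 lower with library totals and 1 higher and none lower with TPM, and only PSMD8 was called higher under every scaling. The shares over all genes were 24.5% higher and 25.9% lower with TMM factors, 15.8% and 35.9% with library totals and 12.8% and 35.5% with TPM. PSMD8 was higher by a log2 fold change of 0.6 (SE 0.083, adjusted p = 0.000258), with 253.8, 278.8 and 267.7 CPM in inhibitor libraries, 180.5, 171.0 and 177.3 CPM in Wnt3a libraries and 175.5, 199.6 and 185.1 CPM in vehicle libraries. PSMD14, the deubiquitinase of the lid, had 143.4, 171.9 and 146.3 CPM in inhibitor libraries, 143.8, 121.3 and 130.0 CPM in Wnt3a libraries and 131.4, 124.0 and 130.3 CPM in vehicle libraries. It was at 0.22 (SE 0.1, adjusted p = 0.087) against Wnt3a, where the libraries overlapped. PSMD11, a scaffold subunit of the lid, had 86.6, 103.0 and 100.1 CPM in inhibitor libraries, 132.0, 117.6 and 126.5 CPM in Wnt3a libraries and 124.1, 115.5 and 131.6 CPM in vehicle libraries. It was lower by counts, with a log2 fold change of -0.38 (SE 0.097, adjusted p = 0.00906) against Wnt3a, but was not called on TPM, which divides by length.

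Another readout in the tables is the length of each gene's transcripts, averaged by abundance in each library. It differed for 2 of the 46 genes between inhibitor and Wnt3a cells, PSMD11 and PSMD12, where 6.01% of the 10959 genes with at least 1 TPM in every library differed. PSMD11 averaged 1780, 1626 and 1713 bases in inhibitor libraries, 2361, 2503 and 2189 bases in Wnt3a libraries and 2248, 2319 and 2305 bases in vehicle libraries. PSMD12, also a lid subunit, averaged 2064, 2055 and 1949 bases in inhibitor libraries, 2678, 2711 and 2726 bases in Wnt3a libraries and 2783, 2835 and 2522 bases in vehicle libraries. Both were shorter in all inhibitor libraries than in the other 6, by a log2 difference against Wnt3a of -0.461 (SE 0.053, adjusted p = 0.00381) for PSMD11 and -0.42 (SE 0.046, adjusted p = 0.00326) for PSMD12, by limma. Against vehicle the same 2 genes were shorter, where 6.07% of all genes differed. GENCODE release 29 lists coding transcripts of 2437 and 4406 bases for PSMD12 and of 480 to 4098 bases for PSMD11. For PSMD11 a shorter average can come from coding or noncoding transcripts. For PSMD12 the averages in inhibitor libraries lay below 2437 bases, the shorter of its 2 listed coding transcripts. The transcripts of other types listed for PSMD12 have 377 to 1752 bases. The annotation release behind the deposited lengths is not given, and which transcripts moved was not tested.

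**Figure D4:**
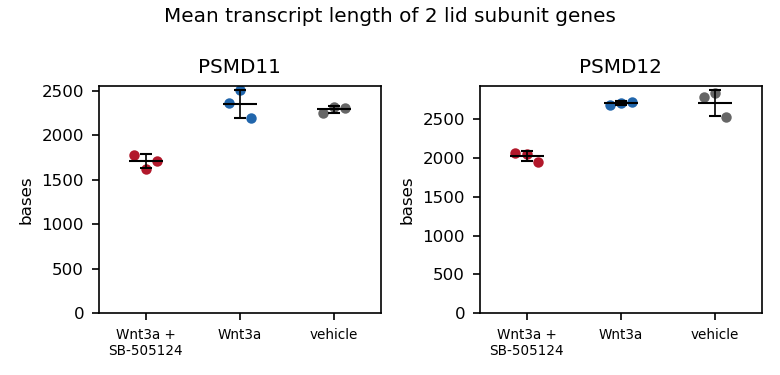
Abundance-weighted mean transcript length, in bases, of the lid genes PSMD11 and PSMD12 in each library (points), with the mean and SD of 3 libraries (bars). The inhibitor libraries lie at 1626 to 1780 bases for PSMD11 and 1949 to 2064 bases for PSMD12, below the other 6.

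Of the 4 chaperones that build the core's alpha ring, PSMG2 rose and PSMG3 and PSMG4 fell against Wnt3a under every scaling. They act as pairs, PSMG1 with PSMG2 and PSMG3 with PSMG4. PSMG2 had 90.82, 89.75 and 81.94 CPM in inhibitor libraries, 47.43, 37.77 and 45.66 CPM in Wnt3a libraries and 45.53, 38.74 and 39.05 CPM in vehicle libraries. All inhibitor libraries lay above the other 6, and PSMG2 was 2.01-fold higher than in Wnt3a cells (log2 fold change 1.0, SE 0.113, adjusted p = 7.48e-05) and 2.13-fold higher than in vehicle cells. Its partner PSMG1 had 27.89, 33.18 and 30.55 CPM in inhibitor libraries, 37.58, 29.87 and 33.01 CPM in Wnt3a libraries and 39.63, 34.69 and 37.19 CPM in vehicle libraries, and was at -0.13 (SE 0.116, adjusted p = 0.366) against Wnt3a with TMM factors, while it was lower with library totals (-0.38) and TPM (-0.46). PSMG4 had 2.77, 3.741 and 3.579 CPM in inhibitor libraries, 7.602, 8.661 and 6.51 CPM in Wnt3a libraries and 7.842, 9.643 and 7.908 CPM in vehicle libraries. PSMG3 had 17.08, 16.55 and 19.43 CPM in inhibitor libraries, 31.5, 27.61 and 20.83 CPM in Wnt3a libraries and 27.71, 33.68 and 27.33 CPM in vehicle libraries. For both PSMG3 and PSMG4 the inhibitor libraries lay below the other 6. PSMG4 fell by 1.17 on the log2 scale (SE 0.193, adjusted p = 0.000701) against Wnt3a and by 1.33 (SE 0.193, adjusted p = 0.000328) against vehicle, and PSMG3 fell by 0.59 (SE 0.16, adjusted p = 0.0115) and 0.74. The call for PSMG3 against Wnt3a ended without Wnt3a replicate 1 (adjusted p = 0.0516). Genes on the opposite strand share exon bases with 3 of the 4. CEP76, which shares 468 bases with PSMG2, was at 22.1 CPM in inhibitor cells, 13.6 CPM in Wnt3a cells and 13.2 CPM in vehicle cells. SLC22A23, which shares 1388 with PSMG4, was at 1.31 CPM in inhibitor cells, 3.67 CPM in Wnt3a cells and 2.3 CPM in vehicle cells. PSMG3-AS1, which shares 60 with PSMG3, was at 1.07 CPM in inhibitor cells, 5.69 CPM in Wnt3a cells and 6.27 CPM in vehicle cells. Each of these 3 was called in the direction of the chaperone gene against Wnt3a. TUBB2B, which shares 174 bases with PSMG4, was at 15.0 CPM in inhibitor cells, 12.1 CPM in Wnt3a cells and 11.7 CPM in vehicle cells, and SPIRE1, which shares 92 with PSMG2, at 29.7 CPM in inhibitor cells, 26.6 CPM in Wnt3a cells and 23.1 CPM in vehicle cells. Against Wnt3a their log2 fold changes were 0.31 for TUBB2B and 0.16 for SPIRE1, and neither was called. The part of these genes in the values of the chaperone genes was not tested.

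Of the 3 chaperones of base assembly, PSMD9 was higher with TMM and RLE factors but not with library totals or TPM. PSMD9 had 66.53, 67.97 and 65.64 CPM in inhibitor libraries, 53.34, 51.34 and 48.85 CPM in Wnt3a libraries and 54.92, 59.63 and 53.41 CPM in vehicle libraries, a log2 fold change of 0.38 (SE 0.083, adjusted p = 0.0036) against Wnt3a. PSMD5 had 47.97, 47.93 and 46.24 CPM in inhibitor libraries, 49.16, 46.57 and 57.34 CPM in Wnt3a libraries and 54.81, 40.32 and 50.62 CPM in vehicle libraries. PSMD10, also called gankyrin, had 44.67, 53.71 and 49.18 CPM in inhibitor libraries, 46.32, 45.05 and 49.31 CPM in Wnt3a libraries and 50.09, 43.88 and 47.58 CPM in vehicle libraries. PSMD5 and PSMD10 overlapped between all groups in CPM and were not called with TMM factors. With library totals PSMD5 was lower than in Wnt3a cells (-0.35), and with TPM it was not called (-0.39). PSMD10 was called against Wnt3a with neither library totals nor TPM.

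Among the activators that cap the core in place of the regulatory particle, PSME3 showed the largest fall of any proteasome gene, while the others did not share its fall in size or direction. PSME3, which forms the nuclear PA28-gamma ring, had 65.62, 71.84 and 67.37 CPM in inhibitor libraries, 198.5, 173.3 and 195.2 CPM in Wnt3a libraries and 191.1, 186.2 and 202.3 CPM in vehicle libraries. All inhibitor libraries lay far below the other 6, a fall of 1.47 on the log2 scale (SE 0.089, adjusted p = 3.66e-06) against Wnt3a and of 1.5 (SE 0.089, adjusted p = 3.24e-06) against vehicle. BECN1, which shares 300 exon bases with PSME3 on the opposite strand, moved the other way, at 73.6 CPM in inhibitor cells, 54.4 CPM in Wnt3a cells and 53.2 CPM in vehicle cells. PSME1 and PSME2 form the interferon-inducible ring together. PSME1 had 166.5, 138.9 and 154.4 CPM in inhibitor libraries, 105.9, 85.45 and 110.1 CPM in Wnt3a libraries and 121.3, 106.5 and 125.3 CPM in vehicle libraries. PSME2 had 45.69, 52.83 and 47.27 CPM in inhibitor libraries, 52.93, 46.03 and 47.85 CPM in Wnt3a libraries and 53.29, 47.61 and 53.36 CPM in vehicle libraries. PSME1 was higher than in Wnt3a cells under every scaling, with a log2 fold change of 0.61 (SE 0.12, adjusted p = 0.00205), while PSME2 overlapped between groups and was at -0.01 (SE 0.099, adjusted p = 0.943) with TMM factors and lower with library totals (-0.26) and TPM (-0.39). Against vehicle, the call of PSME1 (0.38, adjusted p = 0.023) ended without any 1 of 3 libraries, with an adjusted p of up to 0.076. PSME4, which forms the activator PA200, had 74.76, 69.5 and 65.8 CPM in inhibitor libraries, 87.72, 80.85 and 95.2 CPM in Wnt3a libraries and 85.75, 68.64 and 85.27 CPM in vehicle libraries. It was lower than in Wnt3a cells (-0.33, SE 0.112, adjusted p = 0.0318), a call that ended without any 1 of 4 libraries, and was not called against vehicle with TMM factors, though it was with library totals and TPM. PSMF1, the inhibitor of the core particle known as PI31, had 135.7, 152.3 and 160.1 CPM in inhibitor libraries, 84.15, 76.83 and 91.33 CPM in Wnt3a libraries and 94.69, 83.54 and 95.1 CPM in vehicle libraries. All inhibitor libraries of PSMF1 lay above the other 6, with a log2 fold change of 0.83 (SE 0.103, adjusted p = 0.000133) against Wnt3a and 0.71 (SE 0.103, adjusted p = 0.000316) against vehicle.

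**Figure D5:**
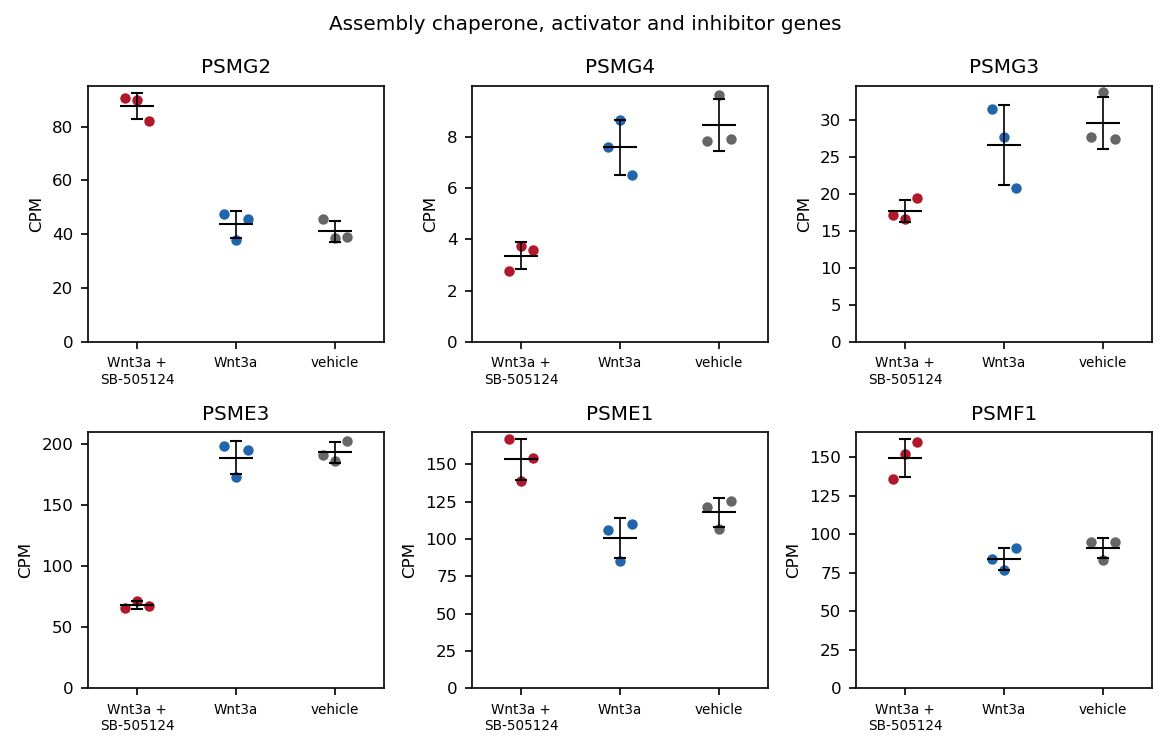
CPM of the core assembly chaperone genes PSMG2, PSMG4 and PSMG3, the activator genes PSME3 and PSME1 and the inhibitor gene PSMF1 in each library (points), with the mean and SD of 3 libraries (bars). The inhibitor libraries lie above the other 6 for PSMG2, PSME1 and PSMF1 and below them for PSMG4, PSMG3 and PSME3.

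Wnt3a alone called no proteasome gene against vehicle with edgeR's quasi-likelihood test, where 0.419% of all genes were called, 0.397% higher and 0.0224% lower. With library totals the count was also 0, against 0.487% of all genes, 0.447% higher and 0.0391% lower, and with TPM it was 0, against 0.38%, 0.352% higher and 0.028% lower. None was called at 2-fold or more, against 0.274% of all genes, and none differed in transcript length, against 0.0274%. DESeq2 and limma-voom also called 0. An unadjusted p below 0.05 in edgeR's test was reached by 2 of the 46 genes, PSMB8 and PSMB10, both lower with Wnt3a. The share of all genes below that unadjusted threshold is not given, so the count is not read as a result about these genes. PSMB8 was at -0.29 (SE 0.113, adjusted p = 0.546) and PSMB10 at -0.37 (SE 0.158, adjusted p = 0.628), and for each the Wnt3a libraries lay below those of vehicle without overlap. Of all genes tested, 17.5% had no overlap, above or below, whereas these 2 genes were picked by their unadjusted p. The log2 fold changes of the 46 genes lay between -0.37 and 0.16, with 31 of them below 0. Their median was -0.05, where that of all genes tested was 0.01. The log2 TPM ratio of PSMB8 to PSMB5 differed by -0.14 and that of PSMB9 to PSMB6 by -0.25, with overlapping libraries (exact permutation p = 0.3 each, adjusted p = 0.337).

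Parts of the proteasome whose symbols lie outside the rule were set beside it. Of these 6 genes, USP14 and UCHL5, deubiquitinases that trim chains at the regulatory particle, were lower than in Wnt3a cells. USP14 was at 97.7, 96.7 and 101 CPM in inhibitor libraries, 136, 128 and 148 CPM in Wnt3a libraries and 147, 116 and 144 CPM in vehicle libraries, a log2 fold change of -0.48 (SE 0.106, adjusted p = 0.00377) against Wnt3a. UCHL5 was at 56.0, 69.0 and 61.7 CPM in inhibitor libraries, 92.0, 81.0 and 97.5 CPM in Wnt3a libraries and 97.8, 76.7 and 90.2 CPM in vehicle libraries, a log2 fold change of -0.53 (SE 0.122, adjusted p = 0.00464). SEM1 of the lid (0.23), the ubiquitin receptor ADRM1 (-0.09), the core maturation factor POMP (-0.04) and PAAF1, a chaperone of the base (-0.02), were not called with TMM factors. Of all genes tested, 25.9% were lower with TMM factors. With library totals 5 of the 6 were lower, against 35.9% of all genes, and with TPM all 6, against 35.5%.

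The regulators known to act on proteasome genes were mixed. NFE2L1, the transcription factor that raises proteasome genes when proteasome activity is low, was at 199, 206 and 194 CPM in inhibitor libraries, 222, 204 and 226 CPM in Wnt3a libraries and 224, 229 and 236 CPM in vehicle libraries, with a log2 fold change of -0.12 (SE 0.079, adjusted p = 0.212) against Wnt3a with TMM factors, and it was lower with library totals (-0.37) and TPM (-0.6). Its relative NFE2L2 was higher, at 159, 174 and 154 CPM in inhibitor libraries, 104, 88.2 and 124 CPM in Wnt3a libraries and 114, 75.2 and 112 CPM in vehicle libraries (log2 fold change 0.62, SE 0.169, adjusted p = 0.0117), and was not called against Wnt3a with library totals or TPM. Of the 12 genes listed for this axis 6 were higher and 3 lower than in Wnt3a cells with TMM factors, where 24.5% of all genes were higher and 25.9% lower. With library totals 3 were higher and 4 lower, against 15.8% and 35.9% of all genes, and with TPM also 3 and 4, against 12.8% and 35.5%. The small MAF partners MAFK (log2 fold change 1.68) and MAFF (2.19) and the repressor BACH1 (1.33) were higher under the scalings by TMM factors, library totals and TPM. DDI2, the protease that activates NFE2L1, was lower (-0.87, adjusted p = 8.19e-05).

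Genes of MHC class I peptide loading and interferon signalling, which work downstream of the immunoproteasome or drive its genes, were 12 higher and 1 lower of 16 against Wnt3a with TMM factors, where 24.5% of all genes were higher and 25.9% lower, with a median log2 fold change of 0.7 where all genes were at -0.06. With library totals they were 7 higher and 1 lower, against 15.8% and 35.9% of all genes, and with TPM 5 and 1, against 12.8% and 35.5%. TAP1, a peptide transporter whose gene adjoins PSMB9, was at 75.2, 107 and 98.1 CPM in inhibitor libraries, 25.4, 24.6 and 31.1 CPM in Wnt3a libraries and 27.0, 28.2 and 30.8 CPM in vehicle libraries (log2 fold change 1.79, SE 0.147, adjusted p = 1.36e-05). IRF9, a subunit of the factor that binds interferon-stimulated response elements, was at 2.13 (SE 0.157, adjusted p = 7.75e-06) and HLA-E at 1.4 (SE 0.109, adjusted p = 9.67e-06). NLRC5, the activator of class I genes, was at 0.25 (SE 0.155, adjusted p = 0.206) and was not called. ERAP1, a peptidase that trims the peptides, was the gene that fell (-0.82, adjusted p = 0.000198). Immune cells carry the immunoproteasome at high levels, so leukocyte markers were read in the same libraries. Their summed level over 16 genes was 11.6 to 16 CPM in inhibitor libraries, 4.98 to 6.4 CPM in Wnt3a libraries and 7.27 to 9.03 CPM in vehicle libraries, with 5, 6 and 6 of the genes at 0. Of the 16, 4 passed the filter, and 2 were higher and 1 lower than in Wnt3a cells. CD68, a lysosomal protein, had 4.63, 8.21 and 6.52 CPM of it in inhibitor libraries, against 0.963, 0.915 and 1.68 CPM in Wnt3a libraries and 1.29, 1.21 and 2.87 CPM in vehicle libraries. Of the other markers read singly, CD3E and HLA-DRA were at 0 in all libraries. CD74 was at most 0.076 CPM, PTPRC 0.17 CPM, LYZ 0.213 CPM and CD14 0.29 CPM. The rest of the 16 are not given singly, so the markers that made up the remainder of the sums are not shown. Summed fibroblast markers were at 457 to 567 CPM in inhibitor libraries, 702 to 1170 CPM in Wnt3a libraries and 547 to 833 CPM in vehicle libraries, with 1 of the 10 higher and 6 lower than in Wnt3a cells. Summed endothelial markers were at 2.27 to 3.38 CPM in inhibitor libraries, 4.28 to 4.56 CPM in Wnt3a libraries and 3.66 to 4.53 CPM in vehicle libraries, and epithelial markers at 4.33 to 5.66, 7.25 to 7.42 and 7.42 to 8.04 CPM in inhibitor, Wnt3a and vehicle libraries. The part of these levels in the proteasome genes was not tested.

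Upstream of the proteasome, UBB, a ubiquitin gene, was at 780.5 CPM in inhibitor cells and 771.2 CPM in Wnt3a cells and was called with library totals (-0.23) and TPM (-0.32) but not with TMM factors. With TMM factors, where 24.5% of all genes were higher than in Wnt3a cells and 25.9% lower, 7 of 15 ubiquitin and activation genes were higher and 2 lower, and of 16 receptors and shuttles 10 were higher and 4 lower, with ZFAND2B (1.18), TXNL1 (1.13) and ZFAND2A (1.11) among those that rose. VCP, the ATPase that hands unfolded substrates to the proteasome, was lower (-0.57, SE 0.106, adjusted p = 0.00139), and among VCP and its cofactors 6 were higher and 2 lower of 12. With library totals the counts were 5 higher and 5 lower for ubiquitin and activation, 6 higher and 4 lower for receptors and shuttles, and 5 higher and 4 lower for VCP and its cofactors, where 15.8% of all genes were higher and 35.9% lower. With TPM they were 4 higher and 4 lower, 4 higher and 5 lower, and 3 higher and 4 lower, in that order of lists, where 12.8% of all genes were higher and 35.5% lower.

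The regulatory particle's lid has known relatives in the COP9 signalosome and the EIF3 translation initiation complex, and these were compared as complexes of similar size. Against Wnt3a with TMM factors, COP9 had 9 genes higher and 1 lower of 10, EIF3 had 11 higher and 1 lower of 13, and the chaperonin TRiC had 4 higher and none lower of 8, where 24.5% of all genes were higher and 25.9% lower. The 8 lid genes of the proteasome had 4 higher and 1 lower. With library totals, where 15.8% of all genes were higher and 35.9% lower, COP9 had 4 higher and 1 lower, EIF3 had 8 higher and 1 lower, TRiC had 2 higher and 2 lower, and the lid had 1 higher and 2 lower. With TPM COP9 had 4 higher and 1 lower, EIF3 had 8 higher and 2 lower, TRiC had 2 higher and 2 lower, and the lid had 1 higher and none lower. Over all genes, 12.8% were higher and 35.5% lower with TPM. The median log2 fold changes were 0.26 for the lid, 0.46 for COP9, 0.6 for EIF3 and 0.29 for TRiC. With TPM the medians were -0.09 for the lid, 0.15 for COP9, 0.28 for EIF3 and -0.02 for TRiC. Differences between the complexes were not tested.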

How the data were processed

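Per the labels' protocols, the kit was stranded and the RNA polyadenylated. The submitters' processing notes name RSEM 1.2.31, STAR 2.5.2a, Trimmomatic 0.36 and CASAVA 1.8.2, with the build hg38. Neither the annotation release nor the strand setting is given in the sources used here. Each library's table, per the file headers, holds RSEM expected counts per gene, which share out reads that fit several genes, with TPM, FPKM and 2 lengths in bases per gene. The authors' TPM and FPKM as deposited are scaled to 1000000 and by length, and FPKM was not used. The length and effective length deposited by the authors are other values, abundance-weighted means over transcripts. The effective length was used only in an alternative run of the length test.

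The 45 second rows of repeated gene IDs were added to their partners. Expected counts were rounded, genes were kept by filterByExpr, and 1 model of the 3 groups was fitted to 9 libraries with edgeR 4.0.16 in R 4.3.3 (quasi-likelihood F test, 2-sided, TMM factors, Benjamini-Hochberg over 17880 genes, threshold 0.05). The standard error is the log2 fold change divided by the square root of F. The common biological coefficient of variation was 21.5%. A fractional count (over 0.001 from a whole number) occurred in some library for 27 of the 48 genes. Lengths were tested with limma 3.58.1 on the log2 scale, and ratios of TPM, with 0.01 added, by exact permutation. Alternatives were RLE factors, library totals, other filters, DESeq2 1.42.0, limma-voom, limma-trend on log2(TPM + 1), 2 groups only, a replicate block, a threshold of 0.01 and leaving out each library. For lengths they were the effective length, at least 5 TPM in every library, a replicate block and leaving out each library. Adding the counts of same-strand neighbours was chosen after seeing the data. The fit was checked on simulated counts with few genes changed, as many up as down, and a smaller spread than in the data. That check does not bear on the choice of scaling.

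The members and gene lists were chosen with earlier results of these data known. All 9 libraries were mapped to groups by their labels, which give no separate cultures for the replicates. The p-values therefore rest on a spread between libraries that may be technical. Named genes were, per comparison, up to 6 called rises and 6 called falls of largest size, a fixed panel of members, all 6 parts outside the symbol rule, NFE2L1, NFE2L2 and up to 4 called genes a list. PSMA1, PSMA6, PSMB3, PSMB4, PSMC3, PSMC5, PSMD1, PSMD2, PSMD3, PSMD8, PSMD12, BACH1, NLRC5, ERAP1, UBB, the overlapping genes and the marker genes given singly were named after their values were seen. Promoter windows come from RefSeq (GRCh38.p14), which matched 42 of the 48 genes, and overlaps and transcript lengths from GENCODE release 29 on hg38, which holds all 48 gene IDs, 46 of them in the same version.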

Additional observations from a re-analysis of the deposited data

How the results depend on the processing

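The scaling moved the counts of proteasome genes called. For inhibitor against Wnt3a the main counts were 22 higher and 7 lower; library totals gave 11 and 15, and limma-trend on TPM 9 and 15, with medians of -0.01 and -0.10 in place of 0.24. For inhibitor against vehicle the main counts were 19 and 6; library totals gave 9 and 15, and TPM 7 and 16, with medians of -0.04 and -0.07 in place of 0.19. For Wnt3a against vehicle the median was 0.03 with TPM in place of -0.05. A threshold of 0.01 left 4 lower against Wnt3a. The log2 ratio of summed TPM was -0.05 for inhibitor against Wnt3a, 0.02 for Wnt3a against vehicle and -0.03 for inhibitor against vehicle, and became 0.22, -0.04 and 0.18 on summed CPM. Without 1 library, the counts for inhibitor against Wnt3a were 16 to 24 higher and 4 to 7 lower, with 4 lower without Wnt3a replicate 1, and those for inhibitor against vehicle 15 to 20 and 5 to 7. The ratio of PSMB10 to PSMB7 against Wnt3a ranged from -0.05 to 0.15 and changed sign without inhibitor replicate 1 (-0.04) and without Wnt3a replicate 3 (-0.05). Single genes changed sign against Wnt3a with library totals for PSMA6 (-0.00) and with TPM for PSMA6 (-0.06), PSMA7 (-0.31), PSMA1 (-0.07), PSMD6 (-0.10), PSMD2 (-0.41) and PSMD13 (-0.08), and against vehicle with TPM for PSMD2 (-0.34) and PSMD13 (-0.05). The scalings differ in construction by the shifts of the median; for the other changes the cause was not tested. The replicate block gave 21 higher and 7 lower against Wnt3a, 19 and 6 for inhibitor against vehicle and 0 for Wnt3a against vehicle, and same-numbered libraries, whose deviations correlated at -0.182 to 0.416 with 4 of 9 correlations above 0.1, share only a number. Depth limits what can be said of PSMA8 and PSMB11, at 0 counts. Among the proteasome genes tested, PSMB9 and PSMG4 had the largest standard errors for inhibitor against Wnt3a, 0.208 and 0.193. Whether depth or spread between libraries made them so was not tested.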
